A study of Drosophila melanogaster with 2 samples.

Results

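Among the known mature microRNAs counted in fly heads, the products of hairpins mir-954 to mir-1002 form a group that entered the Drosophila catalogue later than the classical families. They were chosen here by number alone, leaving out mir-980, mir-993, mir-995, mir-996, mir-998 and mir-1000, and by the largest count where a name was repeated. The rule found 42 mature products of 29 hairpins, out of 240 distinct known products in the series. The small RNA came from heads of female adults of Canton-S, a wild-type laboratory strain of Drosophila melanogaster, at an age of 3 to 5 days. The ethanol library came from about 180 flies given 15 minutes of ethanol vapour, by which time all were sedated, and then 30 minutes of ethanol-free air. The control library came from about 180 flies given ethanol-free air for 45 minutes. Both groups were raised on the same food under a light and dark cycle, and the time of day at freezing is not given in the labels. There was 1 library per group, so the libraries can be compared but the treatment cannot be told apart from other differences between them. The RNA integrity number was 6.40 in the ethanol and 6.80 in the control sample.

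A microRNA hairpin is cut into a short duplex, and either arm, called 5p or 3p by its place in the hairpin, can be loaded into an Argonaute protein. Bases 2 to 8 of the loaded strand, the seed, pair with sites in messenger RNAs and lower their output. Many hairpins in this number range are young in evolution. The hairpins mir-959 to mir-964 are one cluster whose transcription is driven by the circadian clock and which has been linked to feeding rhythm and innate immunity. The hairpins mir-972 to mir-979 and mir-982 to mir-984 are X-linked clusters known mainly from testis.

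The ethanol library held 17600983 reads, of which 13128478 were assigned to known microRNAs, and the control library held 17337082, of which 13692046 were. Levels below are CPM, the count per 1000000 of those known microRNA reads, and ratios are CPM in the ethanol library over CPM in the control library. Intervals are exact 95% intervals that cover counting error only, with reads taken as independent. Only products with 5 or more reads are listed in a library, so an unlisted product had at most 4 reads, which is 0.305 CPM in the ethanol and 0.292 CPM in the control library, or was not counted. Markers of head tissues were abundant in both libraries. The neuronal miR-124 products summed to 55467 reads in the ethanol and 111594 in the control library. The eye and sense organ products of miR-7, miR-263a and miR-263b summed to 132112 and 102273 reads. Of these, miR-263a-5p alone gave 119792 and 90880 reads, and miR-7-5p 9816 and 8922. miR-263b-5p had 1412 reads in the ethanol and 1409 in the control library, and miR-263a-3p had 280 and 428. The muscle products of miR-1 and miR-133 took 3960585 reads in the ethanol and 4296101 in the control library. Of 6 ovary marker products, 2 were listed, with 38 reads in the ethanol and 23 in the control library. The early embryo products summed to 1888 reads in the ethanol and 2520 in the control library. Nearly all of these were reads of miR-5-5p, 1779 in the ethanol and 2445 in the control library. The gut products of miR-281 summed to 1844 and 1828 reads. The part of tissue make-up in the ratios below was not tested, and fewer cells of a type and less RNA per cell cannot be told apart in these pools.

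Sequences that help to follow the results are given as deposited, 5′ to 3′ with T for U and the seed in capitals. The first pair shares a seed, and the next 4 are both arms of mir-999 and mir-954, whose arm use is followed below. Then come 2 abundant products, the nearest relative of miR-954-5p in sequence, and cluster products with fewer reads.
miR-965-5p: gGGGTAAAactgtacgttatatg
miR-1001-5p: tGGGTAAActcccaaggatca
miR-999-5p: aCATAGTCatacggtgaatgtt
miR-999-3p: tGTTAACTgtaagactgtgtct
miR-954-5p: tCTGGGTGttgcgttgtgtgt
miR-954-3p: tTCACATGcaacatcccttac
miR-970-3p: tCATAAGAcacacgcggctat
miR-957-3p: tGAAACCGtccaaaactgaggc
miR-966-5p: tGTGGGTTgtgggctgtgtgg
miR-982-5p: tCCTGGACaaatatgaagtaaat
miR-964-5p: tTAGAATAggggagcttaactt
miR-984-5p: tGAGGTAAatacggttggaattt
let-7-5p: tGAGGTAGtaggttgtatagt

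The 42 products held 41 different seeds, of which 39 occurred in no other known product of these libraries. The seed GGGTAAA was shared by miR-965-5p and miR-1001-5p, and the seed TAAGGAA by miR-994-5p and miR-2500-5p. miR-984-5p has the same first 7 bases as let-7-5p, shown for comparison, but differs from it by 7 edits over its whole length. Its count was 0.00225% of that of let-7-5p in the ethanol and 0.00183% in the control library. The distance from each product to its nearest other known product ran from 6 to 10 edits. The nearest pair was miR-954-5p and miR-966-5p, both rich in G and T. Of the 42 products, 22 began with U (52.4%), against 100 of the other 198 known products (50.5%). Among the more abundant product of each of the 29 hairpins 21 did (72.4%). That share was not taken for the other hairpins, so it cannot be read as particular to the set. Lengths were 20 to 24 nt, with a median of 22 nt in this set and in the other products.

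Few products of this number range were abundant, and most of the reads came from hairpins in introns of other genes. The 42 products took 149995 reads in the ethanol library, 1.14% of known microRNA reads (1.14 to 1.15%), and 170107 reads in the control library, 1.24% (1.24 to 1.25%). The median listed product had 144.5 reads in the ethanol library and 137.0 in the control library, against medians of 516 and 426 reads for the other known products. The 5 most abundant took 89% of the set's reads in the ethanol and 90.4% in the control library, and miR-987-5p alone took 36.8% and 38.3%.

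Of the 29 hairpins, 10 lie in an intron of a protein-coding gene on the same strand in the BDGP6 annotation, which was used here for places and names only since the authors' build was BDGP5. These 10 gave 85.4% of the set's reads in the ethanol and 84.8% in the control library. A further 18 hairpins lie outside coding genes of their strand and gave 14.2% and 14.8%. The last, mir-1001, lies in the gene of the microtubule protein tau, in an intron of 12 annotated transcripts and in the 3′ UTR of 1. The 14 hairpins with another microRNA gene within 10 kb on the same strand gave 16.4% of the set's reads in the ethanol and 13.7% in the control library. Most of these reads, 21627 of 24568 in the ethanol and 19729 of 23373 in the control library, were miR-999-3p. Its hairpin is also 1 of the 10 in introns. By chromosome, 9 of the 29 hairpins are on the X, 8 on 2L, 6 on 2R, 3 on 3R, 2 on 3L and 1 on 4.

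**Figure D1:**
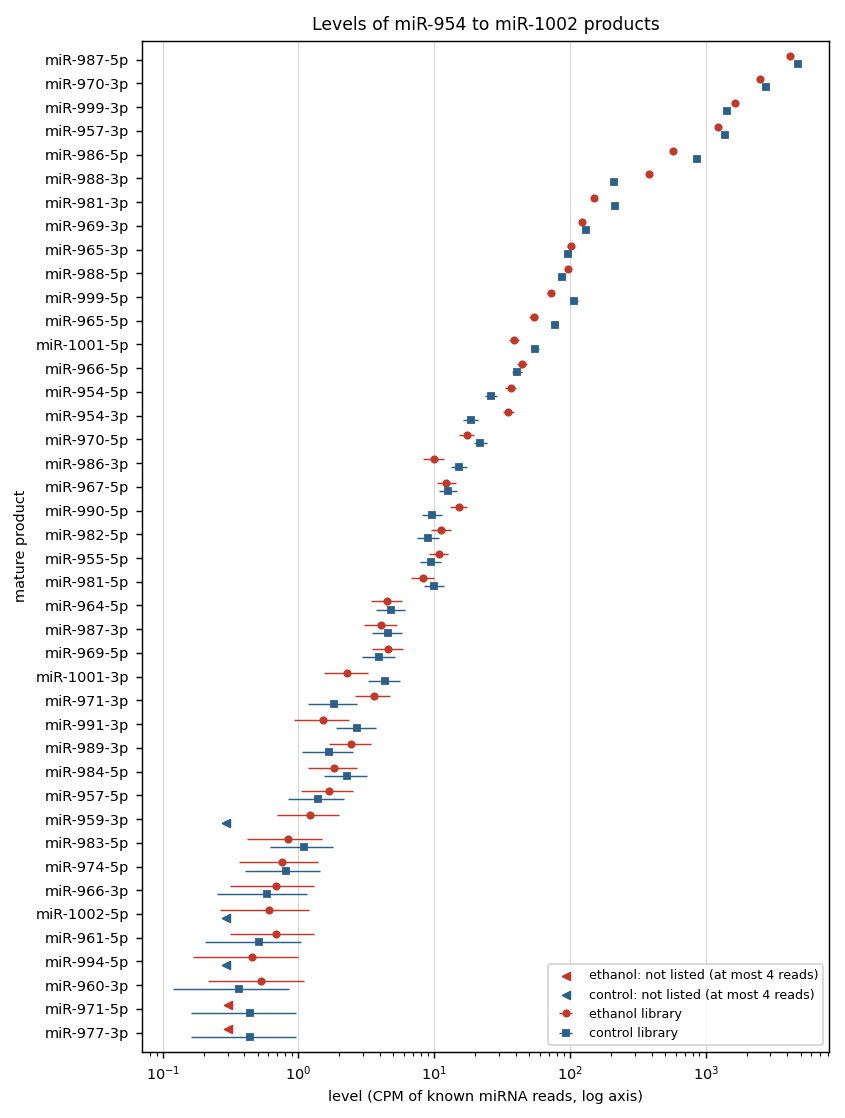
Level of each of the 42 products in CPM of known microRNA reads on a log axis, in the ethanol (circles) and the control library (squares), with exact 95% counting intervals. Triangles mark the most that an unlisted product can have. miR-987-5p is highest in both libraries, while the cluster products miR-982-5p and miR-964-5p lie in the middle and the other products of those clusters at the low end.

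The most abundant product was miR-987-5p, whose hairpin lies within introns of both CG13739 and CG13954. It had 55220 reads in the ethanol library (4210 CPM, the 16th highest known product) and 65235 in the control library (4760 CPM, the 15th highest). Its ratio was 0.883 (0.873 to 0.893), so the interval lay below 1 but the distance from 1 was small. miR-970-3p, from an intron of Tomosyn, which encodes an inhibitor of synaptic vesicle fusion, had 33014 reads in the ethanol and 38067 in the control library (ratio 0.904, 0.891 to 0.918). miR-999-3p, from an intron of CASK, which encodes a scaffold protein of synapses, had 21627 reads in the ethanol and 19729 in the control library (ratio 1.14, 1.12 to 1.17). The 3 products thus lay close to 1, with miR-999-3p on the other side from the other two.

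miR-957-3p, outside coding genes, had 16102 reads in the ethanol and 19084 in the control library (ratio 0.88, 0.862 to 0.899). miR-986-5p, from an intron of the cytochrome P450 gene Cyp4e2, had 7579 reads in the ethanol and 11744 in the control library. It was 1.49-fold lower in the ethanol library (ratio 0.673, 0.654 to 0.693), the lowest ratio among the 5 most abundant products. miR-988-3p, from an intron of Prp8, the gene of a core spliceosome protein, went the other way. It had 5019 reads in the ethanol and 2877 in the control library (ratio 1.82, 1.74 to 1.91), and ranked 58th in the ethanol and 69th in the control library.

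miR-981-3p had 1988 reads in the ethanol and 2951 in the control library (ratio 0.703, 0.663 to 0.744). miR-969-3p, whose hairpin neighbours that of the eye microRNA miR-210, had 1618 reads in the ethanol and 1805 in the control library (ratio 0.935, 0.874 to 1). The neighbour miR-210-3p had 59953 and 59960 reads, a ratio of 1.04 (1.03 to 1.05), so both products of this locus stayed close to 1. miR-965-3p lies in an intron of kis, the gene of the chromatin remodeller kismet, and its hairpin is known to restrain cell proliferation in the abdominal epidermis. It had 1328 reads in the ethanol and 1317 in the control library (ratio 1.05, 0.974 to 1.14), and the interval held 1.

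The comparison of the libraries asked which levels differ after the exposure. With at least 100 reads over both libraries required, 26 products of 17 hairpins were compared, of 168 known products compared in all. None of the 26 reached a ratio of 2, which 2.38% of all compared products did, and none was as low as a ratio of 0.5, which 1.19% did. Ratios ran from 0.649 to 1.9. The counting interval lay above 1 for 6 of the 26 (23.1%), against 36.9% of all compared products, and below 1 for 10 of the 26 (38.5%), against 38.1%. It held 1 for 10 of the 26, against 25% of all compared products. The set's median log2 ratio was -0.10 (quartiles -0.32 and 0.20), against -0.02 over all compared products (quartiles -0.28 and 0.32). In CPM the share below 1 was thus near the background and the share above 1 was lower than it. Intervals are wider at low counts, and the set's listed products had lower median reads than the other known products. The part of read depth in these shares was not tested. No test across samples exists with 1 library per group, and the spread between libraries of equal treatment is unknown here.

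**Figure D2:**
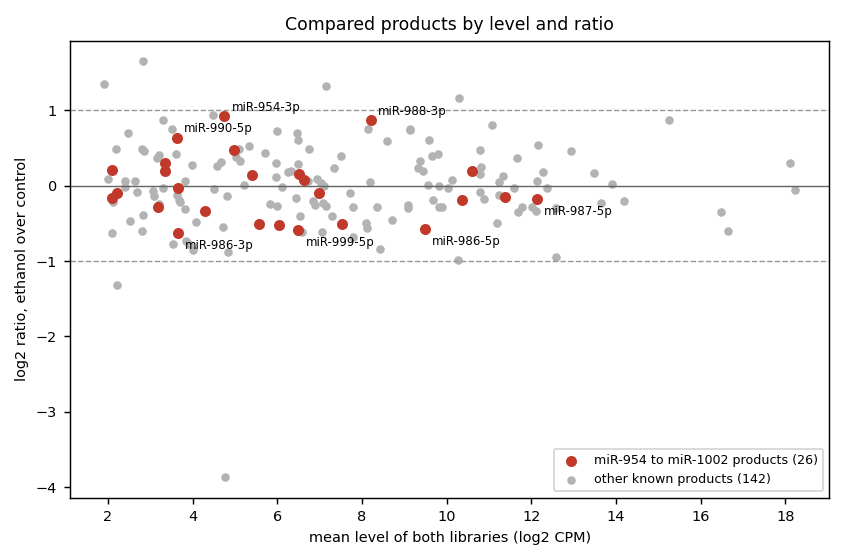
Log2 ratio of CPM, ethanol over control, against the mean log2 CPM of both libraries for the 26 compared products of miR-954 to miR-1002 (red) and the 142 other compared products (grey). Dashed lines mark 2-fold either way, and all red points lie between them.

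The 6 products with intervals above 1 came from 4 hairpins. The highest ratio was that of miR-954-3p, from the small chromosome 4, with 462 reads in the ethanol and 254 in the control library (ratio 1.9, 1.62 to 2.22). The other arm, miR-954-5p, had 479 reads in the ethanol and 361 in the control library (ratio 1.38, 1.2 to 1.59), so both arms of this hairpin were higher. In mir-988 too both arms were above 1, with miR-988-5p at 1273 reads in the ethanol and 1188 in the control library (ratio 1.12, 1.03 to 1.21). miR-990-5p, from an intron of CG8910, had 198 reads in the ethanol and 133 in the control library (ratio 1.55, 1.24 to 1.95). The third highest ratio was therefore that of a product with few reads and a wide interval. The sixth product was miR-999-3p, described above.

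The 10 products with intervals below 1 came from 8 hairpins. The lowest ratio was that of miR-986-3p, the rare arm of its hairpin, with 130 reads in the ethanol and 209 in the control library (1.54-fold lower, ratio 0.649, 0.517 to 0.811). Both arms of mir-986 were thus lower by a similar factor. miR-999-5p, the rarer arm of mir-999, was next, with 946 reads in the ethanol and 1483 in the control library (1.5-fold lower, ratio 0.665, 0.613 to 0.722). miR-970-5p had 228 reads in the ethanol and 300 in the control library (ratio 0.793, 0.664 to 0.945). The abundant products miR-987-5p, miR-970-3p and miR-957-3p made up the side of the group nearest to 1.

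The pair with a common seed showed nearly the same ratio although the hairpins lie in different genes. miR-965-5p had 708 reads in the ethanol and 1061 in the control library (ratio 0.696, 0.632 to 0.766). miR-1001-5p had 509 reads in the ethanol and 757 in the control library (ratio 0.701, 0.626 to 0.786). The intervals overlap almost fully. Such closeness was not particular to the pair, since miR-981-3p, which has another seed, had a ratio of 0.703. Summed over the seed, reads were 1217 in the ethanol and 1818 in the control library, 92.7 and 133 CPM, which is 1.43-fold lower (1.33 to 1.54). Over the whole length the sequences are 11 edits apart.

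The other 10 compared products had intervals that held 1. Besides miR-965-3p and miR-969-3p these were miR-966-5p with 585 reads in the ethanol and 555 in the control library, miR-967-5p with 162 and 173, and miR-982-5p with 147 and 124. miR-966-5p comes from an intron of Pfas, a gene of purine synthesis, and miR-967-5p from an intron of bun, a growth regulator of the TSC-22 family. miR-955-5p had 142 reads in the ethanol and 129 in the control library, and miR-981-5p had 108 and 137. The last 3 lay just inside the read minimum, with miR-969-5p at 60 reads in the ethanol and 54 in the control library, miR-964-5p at 59 and 66 and miR-987-3p at 53 and 62. At such counts the intervals are wide, and that of miR-987-3p ran from 0.606 to 1.31.

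**Figure D3:**
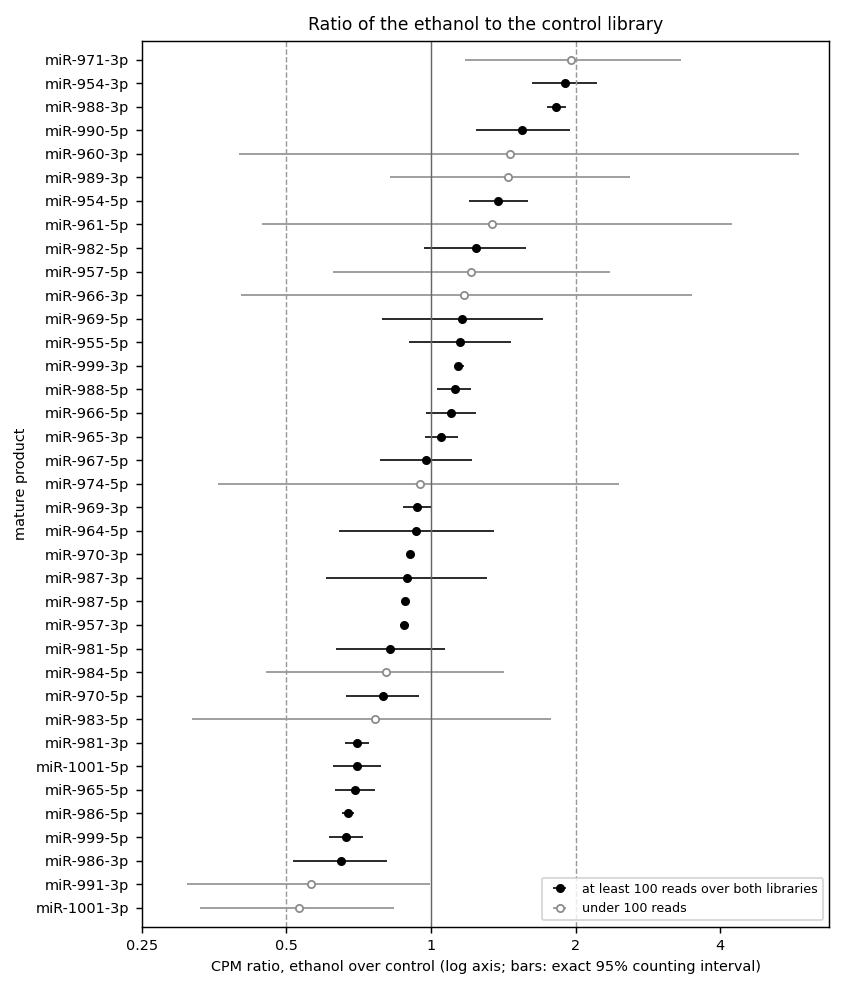
Ratio of CPM, ethanol over control, on a log axis for the 37 products listed in both libraries, with exact 95% counting intervals. Filled points had at least 100 reads over both libraries and open points fewer. Filled points run from 0.649 for miR-986-3p to 1.9 for miR-954-3p, inside the dashed 2-fold lines.

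The share of guanine in the mature sequence moved with the ratios. Over all compared products, 59 of the 84 at or below the median guanine share of 22.9% had a ratio above 1, as had 23 of the 84 above it. Within the set it was 6 of 11 and 5 of 15. miR-954-3p held 4.76% guanine, the least among the set's compared products, and miR-988-3p 13.6%, while miR-986-3p held 31.8%. With a linear guanine term taken out, the log2 ratio was 0.51 for miR-954-3p (0.92 before), 0.65 for miR-988-3p (0.86 before) and -0.42 for miR-986-3p (-0.62 before). miR-954-5p, with 42.9% guanine, had 0.93 (0.47 before), and miR-966-5p, with 57.1%, had 0.92 (0.14 before). The share of miR-966-5p was the highest of all compared products, and no known product outside the set passed 50%. Its value with the term therefore rests on the far end of the line. The interval, moved by the same term without the error of the fit, then held 1 for miR-970-5p (log2 ratio -0.10, -0.34 before). It lay below 1 for miR-965-3p (-0.14, 0.07 before) and above 1 for miR-966-5p and miR-955-5p (0.47, 0.20 before), all 3 of which had held 1. No compared product of the set passed 2-fold with that term either, and the seed pair stayed lower, at -0.35 for miR-965-5p and -0.49 for miR-1001-5p.

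The ratio between the arms of a hairpin does not depend on how the libraries are scaled. Both arms had at least 100 reads in 9 hairpins of the set, and in 3 of them, mir-965, mir-969 and mir-999, the arms lay on opposite sides of 1, as they did in 49.2% of the 61 hairpins compared in all. Only in mir-999 of these 3 did the counting interval of each arm leave out 1. No hairpin of the set shifted 2-fold in the odds of 3p over 5p reads, where 18% of the 61 did. The interval of the odds ratio left out 1 in 4 of the 9, against 68.9% of all hairpins, and in all 4 the shift was towards 3p. Read depth, on which the width of such intervals depends, was not matched between the set and the other hairpins. Over all 61 hairpins the interval lay towards 3p in 25 and towards 5p in 17.

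In mir-999 the 3p share of reads was 95.8% in the ethanol library (95.5 to 96.1%) and 93% in the control library (92.7 to 93.3%), an odds ratio of 1.72 (1.58 to 1.87). In mir-988 it was 79.8% in the ethanol (78.8 to 80.8%) and 70.8% in the control library (69.3 to 72.2%), an odds ratio of 1.63 (1.48 to 1.79). These hairpins have a dominant 3p arm, which became more dominant in the ethanol library. In mir-965 the 3p share was 65.2% in the ethanol and 55.4% in the control library (odds ratio 1.51, 1.34 to 1.71), since miR-965-5p was lower while miR-965-3p was near 1. In mir-954 it was 49.1% in the ethanol and 41.3% in the control library (odds ratio 1.37, 1.11 to 1.69), so this hairpin used both arms about equally. With the guanine term the log2 odds ratio of mir-999, whose arms hold the same guanine share, stayed at 0.78, that of mir-988 was 0.29 (0.70 before), that of mir-965 was 0.21 (0.60 before) and that of mir-954 changed sign to -0.42 (0.46 before), with its interval below 1.

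In the other 5 hairpins the interval of the odds ratio held 1. The 3p share of mir-987 was 0.0959% in the ethanol and 0.095% in the control library, and that of mir-986 was 1.69% and 1.75%, so these hairpins gave nearly pure 5p product. The 3p share was 99.3% in the ethanol and 99.2% in the control library for mir-970, 96.4% and 97.1% for mir-969, and 94.8% and 95.6% for mir-981. With the guanine term the log2 odds ratio of mir-981 was -0.64 (-0.23 before) and its interval lay below 1, towards 5p. Those of mir-987 (-0.33, 0.01 before) and mir-970 (-0.14, 0.19 before) still had intervals that held 1, as did mir-969 and mir-986. The set thus held hairpins at both extremes of arm use and, in mir-954 and mir-965, in the middle.

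**Figure D4:**
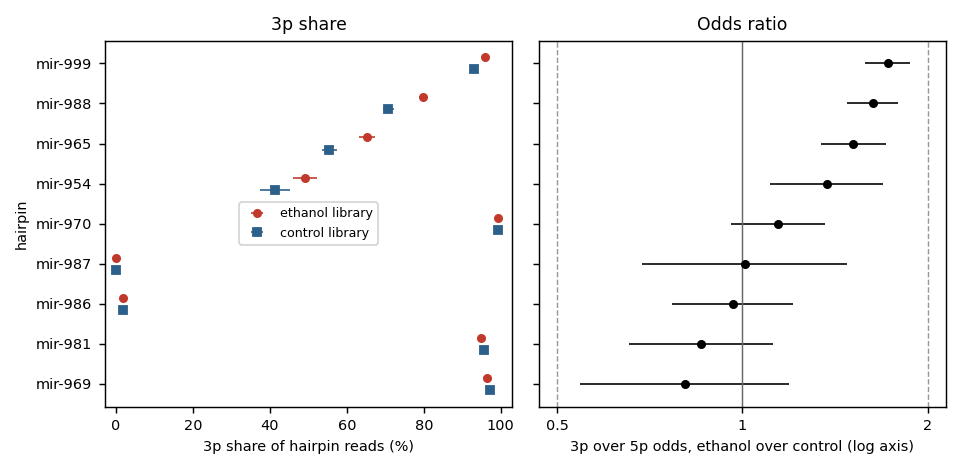
Left, share of 3p reads in percent for 9 hairpins in the ethanol (circles) and the control library (squares), with exact binomial 95% intervals. Right, the odds of 3p over 5p reads, ethanol over control, on a log axis with exact 95% intervals, which lie above 1 for mir-999, mir-988, mir-965 and mir-954 and inside the dashed 2-fold lines for all 9.

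The clock-driven cluster of mir-959 to mir-964 gave few reads. It lies on 2L, inside an intron of DIP-theta on the opposite strand, and 4 of its 12 possible arm products were listed. miR-964-5p carried most of the reads, with 59 in the ethanol and 66 in the control library (ratio 0.932, 0.645 to 1.35). The others were closer to the listing limit. miR-961-5p had 9 reads in the ethanol and 7 in the control library, and miR-960-3p had 7 and 5. miR-959-3p had 16 reads in the ethanol library (1.22 CPM) and was not listed in the control library. Summed, the cluster had 91 reads in the ethanol and 78 in the control library, a ratio of 1.22 (0.889 to 1.67), or 1.16 with miR-959-3p set to 4 reads in the control. No product of mir-962 or mir-963 was listed, and none of mir-956 or mir-958, which were grouped with mir-959 to mir-962 as an immunity list. That list summed to 32 reads in the ethanol and 12 in the control library, a ratio of 2.78 (1.39 to 5.93), or 2.09 (1.11 to 4.07) with miR-959-3p set to 4 reads in the control. Of its 32 ethanol reads, 16 were those of miR-959-3p, which was listed in the ethanol library only. For miR-960-3p the ratio was 1.46 (0.399 to 5.83) and for miR-961-5p 1.34 (0.444 to 4.24), so both intervals held 1. The list's ratio thus depends on miR-959-3p and is not read as a difference. The sum rests on 3 listed products.

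The testis clusters gave few reads in these female heads. Of the cluster of mir-972 to mir-979 only miR-974-5p and miR-977-3p were listed. miR-974-5p had 10 reads in the ethanol and 11 in the control library, and miR-977-3p was not listed in the ethanol library and had 6 reads in the control library. The 6 other hairpins of that cluster had no listed product. All 3 hairpins of the cluster of mir-982 to mir-984 were listed, each by its 5p arm. miR-982-5p led with 147 reads in the ethanol and 124 in the control library (ratio 1.24, 0.967 to 1.58). miR-984-5p had 24 reads in the ethanol and 31 in the control library, and miR-983-5p, made by twin hairpins with the same sequence, had 11 and 15. Both clusters together summed to 192 reads in the ethanol and 187 in the control library (ratio 1.07, 0.871 to 1.32). The interval held 1, as it did for the clock-driven cluster.

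**Figure D5:**
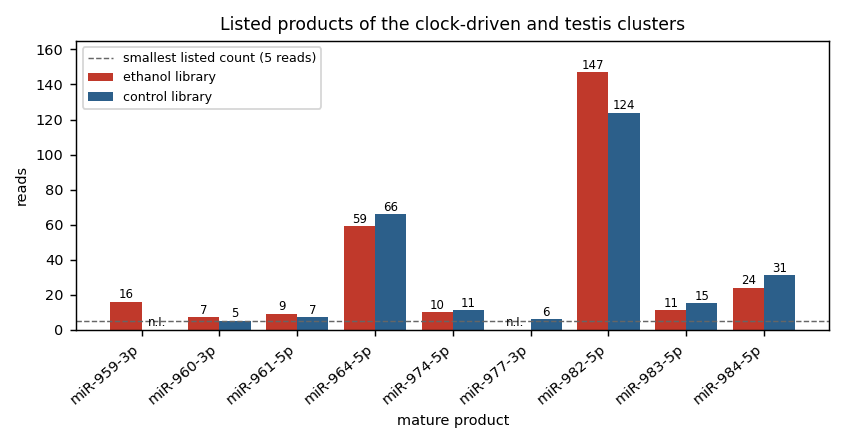
Reads of each listed product of the clusters of mir-959 to mir-964, mir-972 to mir-979 and mir-982 to mir-984 in the ethanol (left bar) and the control library (right bar); n.l. means not listed and the dashed line is the smallest listed count of 5 reads. miR-982-5p and miR-964-5p stand above the others in both libraries.

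Ovary-linked hairpins were also rare. miR-989-3p, which acts in border cell migration during egg development, had 32 reads in the ethanol and 23 in the control library (ratio 1.45, 0.823 to 2.6). miR-994-5p, from a hairpin beside mir-318, had 6 reads in the ethanol library and was not listed in the control library. miR-991-3p lies beside the mir-310 to mir-313 cluster and had 20 reads in the ethanol and 37 in the control library (ratio 0.564, 0.31 to 0.997), while no product of its neighbour mir-992 was listed. Of that cluster's 3p products miR-312-3p had the most reads, with 90 reads in the ethanol and 58 in the control library (ratio 1.62, 1.15 to 2.29), on the other side of 1 from miR-991-3p. On that side too was miR-310-3p, with 25 reads in the ethanol and 8 in the control library (ratio 3.26, 1.43 to 8.36). miR-311-3p had 9 reads in the ethanol library and was not listed in the control library. miR-1002-5p had 8 reads in the ethanol library and was not listed in the control library, and its neighbour mir-968 had no listed product.

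In all, 16 of the 42 products fell below the comparison: 11 listed in both libraries with 12 to 89 reads in total, 3 listed only in the ethanol library and 2 only in the control library. The 2 in the control alone were miR-977-3p and miR-971-5p, with 6 reads each. Ratios of the 11 ran from 0.53 to 1.96, and the interval left out 1 for 3 of the 11, against 18.9% of the 53 known products with so few reads listed in both libraries. Besides miR-991-3p these were miR-971-3p, from an intron of the memory gene radish (rsh), with 47 reads in the ethanol and 25 in the control library (ratio 1.96, 1.18 to 3.32), and miR-1001-3p with 30 and 59 (ratio 0.53, 0.33 to 0.836). Both are named after their values were seen. miR-1001-3p was thus lower together with its abundant 5p arm. The remaining low products were miR-957-5p with 22 reads in the ethanol and 19 in the control library and miR-966-3p with 9 and 8.

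The authors' deposited table compares 32 of the 42 products and marks none of them as different, where it marks 7.14% of its 196 products. Some of the unmarked products had very small p-values there, so an absent mark does not stand for a large p-value. In the authors' deposited table the largest log2 ratios of the set were 0.89 for miR-971-3p and 0.84 for miR-954-3p, and miR-1001-3p had the lowest. P-values in the authors' deposited table compare the reads of a single pair of libraries, not the treatments.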

How the data were processed

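The deposited counts are reads assigned to each mature miRNA in each of the 2 libraries. Per the submitters' processing notes, BDGP5 was the genome build; no aligner, counting tool or miRNA database release is named in the labels or headers. The authors' RPM is the count over the library's total read number, and recomputed RPM differed from it by at most 4.9e-05; what that deposited total counts is not stated. The authors' deposited comparison holds a log2 ratio of RPM and a p-value whose test is not given.

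For repeated names the largest count was kept, and the 5p sequence common to mir-276a and mir-276b was used once. Counts were scaled to CPM over all known miRNA reads. A product entered the comparison with 100 or more reads summed over the libraries, and was called at a ratio of 2 or more, or 0.5 or less. Intervals (95%) are exact Poisson for levels, exact binomial (Clopper-Pearson) for shares, exact conditional binomial for ratios and exact conditional for odds ratios. These intervals take reads as independent and cover counting error only. PCR reads without molecular identifiers are not independent molecules, so the intervals can be too narrow. With 1 library per group no p-value was computed. Counts were simulated for the 221 products listed in both libraries, with counting error only and the true scaling given. Of 3373 ratio intervals of compared products, 95% held the true ratio. The counts were drawn by the model behind the intervals, so this checks the computation and not the spread between libraries.

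All compared products of the set are named, with full ratios for the 12 with the most reads, the 3 highest and 3 lowest ratios and each list's leading product. Products under 100 reads are named where they belong to a list (mir-959 to mir-964, the testis clusters, mir-989 and mir-994, mir-956 and mir-958, mir-991 and mir-992, mir-968 and mir-1002). The members and lists were chosen with earlier results of these data known. Places come from the Ensembl BDGP6 annotation, and host and neighbour genes were read from it by overlap and by a distance of 10 kb. Tools were Python 3.11.15, pandas 2.3.3, numpy 2.4.6, SciPy 1.17.1 and matplotlib 3.10.9, and for alternative scaling R 4.3.3 with edgeR 4.0.16 (TMM) and DESeq2 1.42.0 (size factors). Alternatives also covered the authors' RPM, CPM without the 4 most abundant products, a guanine term, other read minimums and summed repeated names.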

Additional observations from a re-analysis of the deposited data

How the results depend on the processing

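No paired analysis was possible because each group has 1 library. None of the 26 compared products of the set passed 2-fold either way under the authors' RPM, TMM or DESeq2 size factors. The same held for CPM without the 4 most abundant products, the guanine term and summed repeated names. The 11 products listed in both libraries with fewer than 100 reads were not counted under those alternatives. In CPM none of the products kept by a minimum of 10 or 1000 reads or none passed 2-fold, and without a minimum 37 were kept. The 5 products listed in 1 library have no ratio. The count of intervals above 1 was 3 with a minimum of 1000 reads, against 6, because only 14 products were then compared; under the other alternatives it was 5 to 8. The count below 1 was 8 with that minimum and 10 to 12 under the others, against 10. Over all compared products, 44 of 107 intervals lay above 1 and 50 below 1 with that minimum. With the guanine term it was 68 and 49 of 168, against 8 and 10 of the set's 26. Without the 4 most abundant products it was 47 and 80 of 168, against 5 and 12 of the 26. The set's median log2 ratio ran from -0.22 to -0.04. Without the 4 most abundant products the median of all compared products was -0.14, against -0.02. miR-965-3p changed sign under the authors' RPM (-0.01), under CPM without the 4 most abundant products (-0.05) and with the guanine term (-0.14), which also turned miR-967-5p (0.20) and miR-981-5p (0.13). In CPM the interval of each of the 3 held 1; with the guanine term that of miR-965-3p lay below 1. The immunity list's ratio, with a setting chosen after seeing the data, was 2.09 with its unlisted product at 4 reads, against 2.78. The summed ratio of the mir-959 to mir-964 cluster ran from 1.15 to 1.22 and that of the testis clusters from 1.01 to 1.09. Depth limits the products under 100 reads.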
